A study of Mus musculus with 75 samples.

Results

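The forced expression of E2f4 in mouse skin fibroblasts was compared with an EGFP vector in 4 RNA-seq libraries, 2 of E2f4 overexpression and 2 of the vector control. They were chosen by their titles, out of 44 RNA-seq libraries and 75 samples of a series on replicative senescence, the arrest that cultured cells enter after repeated passaging. All 4 came from C57BL/6 skin fibroblasts. Per the study's methods, both groups were transduced with a lentivirus that is switched on by doxycycline; one carried the E2f4 coding sequence joined through a P2A peptide to EGFP, the other was the matching EGFP vector. The paper's results give cells at passage 4, before senescence, for this experiment, whereas its methods give a later passage for senescence interventions. The methods name fibroblasts of newborn and of 2-month-old mice for such experiments without saying which were used here. Infected cells were not described as a clone, and nothing states that the libraries came from separate cultures, so p-values measure the spread between these libraries only, which may be technical.

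E2F4 is a member of the E2F family of transcription factors, which bind DNA as dimers with DP proteins. In resting cells it is known as the main E2F of the DREAM complex, in which a pocket protein (p107 or p130) and the MuvB core repress genes of DNA replication and mitosis. E2F4 has no cyclin-binding domain and lacks the strong nuclear localization signal of the activator E2Fs, and it has been linked to activation as well as repression, in part through multiciliated-cell differentiation.

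Before any fold change was read, the libraries were compared with each other. They held 17433172 to 27552949 reads assigned to genes. Reads assigned to no gene were 6.01% and 5.64% in the E2f4 libraries against 11.5% and 10.8% in the vector libraries. This share is of the assigned, ambiguous and these unassigned reads together. It does not tell reads in introns from reads between genes. The mean exonic GC content of a counted read was 50.9% and 51.2% with E2f4 and 49.5% and 49.9% with the vector. Pearson's r of log2 CPM (the read count of a gene scaled to the TMM-adjusted size of its library, the unit of all levels here), over genes, was 0.993 within the E2f4 pair, 0.989 within the vector pair and between 0.933 and 0.955 across the groups. All 13 fibroblast markers were measured, with a summed level of 26610 to 29810 CPM that Col1a1 and Col1a2 made up for the most part.

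Fold changes followed the GC content of the transcript. Without a correction, Spearman's correlation of the log2 fold change with exonic GC content over the 13178 genes tested that had a GC value was 0.56. The median log2 fold change rose from -0.83 in the decile of genes with the lowest GC content (26.67% to 41.98%) to 0.63 in the decile with the highest (58.3% to 73.0%). In the lowest decile 499 genes were called lower and 14 higher, and in the highest decile 304 were called higher and 30 lower. The same kind of trend separated replicates of one group: the difference between the first and the second library correlated with GC content at -0.49 for E2f4 and -0.45 for the vector. A loess curve of each library on exonic GC content was therefore taken out as an offset, after which the correlation was 0.01 and the medians of all deciles lay between -0.03 and 0.01. The common biological coefficient of variation fell from 0.0987 to 0.0731.

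**Figure D1:**
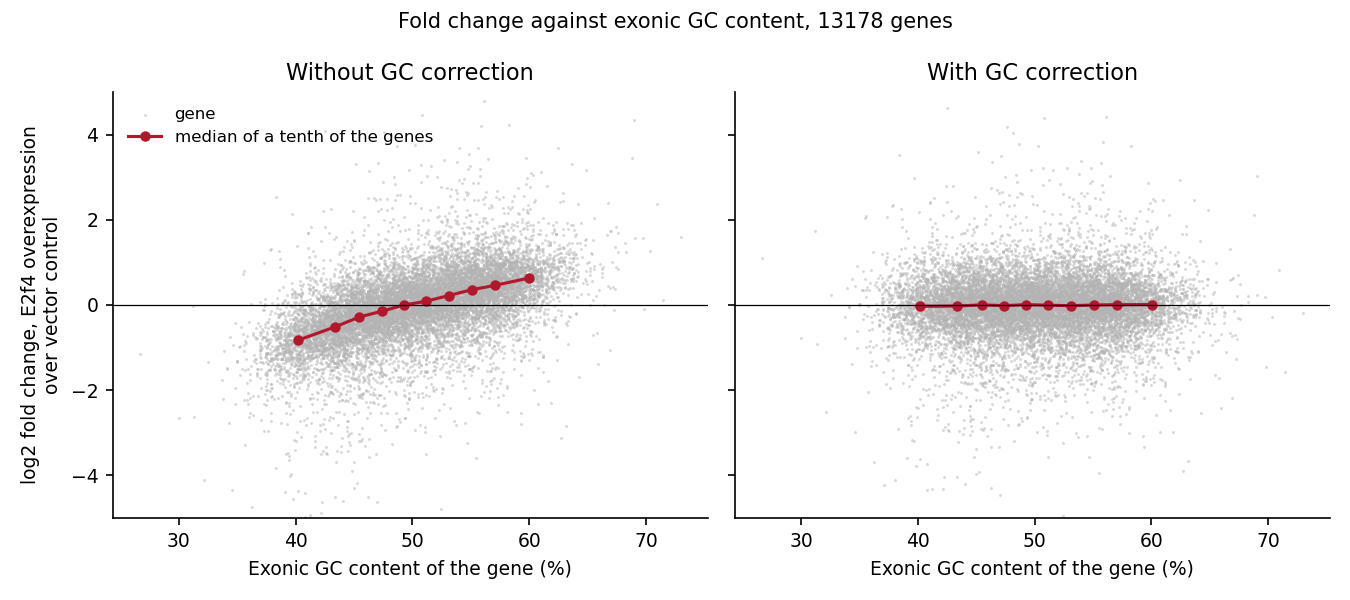
The log2 fold change of each gene, E2f4 overexpression over vector control (y axis), is plotted against its exonic GC content in percent (x axis), without the correction on the left and with it on the right; red points are medians of deciles of the genes, and 14 and 12 genes beyond a log2 fold change of 5 lie outside the axes. The medians run from -0.83 to 0.63 on the left and stay within 0.03 of 0 on the right.

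A gene was called with an edgeR adjusted p under 0.05 and a fold change over 2. With E2f4, it was said to rise or fall only where it passed the adjusted p in the same direction with and without the correction. Of 13199 genes tested, 1015 (7.69%) were called higher and 1379 (10.4%) lower without the correction, and 636 (4.82%) and 896 (6.79%) with it. Both fits called 481 genes higher (3.64%) and 672 lower (5.09%). Of the 2394 genes called without the correction, 48.2% were called with it, 381 no longer passed the adjusted p in the same direction, and 0 passed in the opposite one. The correction brought in 379 further genes. Without the fold threshold, 28.9% passed as higher and 28.2% as lower before the correction, and 26.1% and 25.6% after it. In both fits 2482 genes (18.8%) rose and 2363 (17.9%) fell, which is the background for the counts of gene lists below. Genes called higher had a median exonic GC content of 55.9% and genes called lower one of 43.7% without the correction; for genes called in both fits these were 52.95% and 47.6%, beside 50.2% over all genes tested. Some residual relation with length remained, with a Spearman correlation of -0.12 after the correction and -0.23 before.

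What the correction removes is shown by the genes of the most extreme composition. Prr7, with an exonic GC content of 69.0%, stood at 15.2 and 16.2 CPM against 3.71 and 7.09 CPM, a log2 fold change of 1.57 that became 0.24 after the correction. The linker histone gene H1fx (1.56 to 0.18) and Scand1 (1.25 to 0.07) went the same way. At the other end, the lysophosphatidic acid receptor gene Lpar4, with a GC content of 33.7%, went from -1.76 to -0.29, and the zinc finger genes Zfp943 and Zfp945 from -1.51 to -0.41 and from -1.50 to -0.28. None of these 6 genes passed the test in the main fit with the loess correction on all 4 libraries. With GC content taken out in 20 bins instead, Prr7 (0.88), H1fx (0.88), Lpar4 (-0.80), Zfp943 (-0.56) and Zfp945 (-0.55) passed. With the loess curve but no filter on low counts all 6 passed, from 0.85 for H1fx to -0.68 for Lpar4. Their loss thus depended on the form of the correction and on the filter. The GC-rich ones depended on single libraries: without the second vector library Prr7 (0.79) and H1fx (0.92) passed, as they did without the second E2f4 library (0.59 and 0.56), and Zfp943 passed without the first E2f4 library (-0.68) and Zfp945 without the first vector library (-0.47). Scand1 shares 26.7% of its exonic length with another gene, and its corrected value turned to -0.23 without the first vector library and was 0.92 without the second.

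E2f4 itself was the targeted gene. It was measured at 1118 and 1180 CPM in the overexpression libraries and at 35.5 and 47.5 CPM in the vector libraries. The groups stood far apart, and the vector libraries lay in the range of the untransduced fibroblasts of passages 1 to 7, at 33.6 to 48.8 CPM. The log2 fold change was 4.79 without and 4.40 ± 0.11 (SE) with the correction (edgeR adjusted p = 9.04e-09). RefSeq places E2f4 at chr8:105297663-105305370 of GRCm38. The cloned sequence is the coding sequence of the gene, so reads of the transgene and of the endogenous gene were counted together and cannot be told apart.

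Among the other E2F genes, the atypical repressors rose. E2f7 was at 65.1 and 68.7 CPM with E2f4 and at 27.5 and 26.0 CPM with the vector, a log2 fold change of 1.31 ± 0.09 after the correction (edgeR adjusted p = 3.14e-06). E2f8 was at 34.1 and 34.8 CPM against 12.3 and 17.1 CPM, with 1.15 ± 0.14 (adjusted p = 9.06e-05). In both genes the lower E2f4 library exceeded the higher vector library, but the groups were apart in all 1153 genes called in both fits. The corrected fold was close to the uncorrected one, 1.32 and 1.24. E2F7 and E2F8 bind DNA without a DP partner and are themselves E2F targets that restrain the family.

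The DP partner gene Tfdp1 rose by a smaller step, from 188 and 183 CPM with the vector to 246 and 240 CPM (0.53 ± 0.07). The other partner, Tfdp2, fell, with 40.5 and 33.4 CPM against 58.5 and 50.1 CPM (-0.28 ± 0.10, edgeR adjusted p = 0.0338). Without the second E2f4 library Tfdp2 was at -0.18 and no longer passed, nor did it with length added to the correction (-0.16). The activator gene E2f3 fell (-0.46 ± 0.08), as did E2f6, which encodes a repressor that acts without pocket proteins (-0.56 ± 0.09). For E2f1, the classical activator, the answer depended on the correction: levels of 52.5 and 57.5 CPM against 33.4 and 41.0 CPM gave 0.57 without it and 0.08 with it (adjusted p = 0.465), at an exonic GC content of 58.0%. E2f2 (1.16 and 0.75) and E2f5 (-0.58 and -0.36) also passed only without it. With the correction E2f2 passed when the first vector library was left out (1.49), and E2f5 when the first E2f4 library (-0.54) or the second vector library (-0.44) was. Thus 4 of the 10 E2F and DP genes rose, E2f4 among them, and 3 fell (1 without the second E2f4 library), with a list median of 0.30 beside -0.01 over all genes tested.

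**Figure D2:**
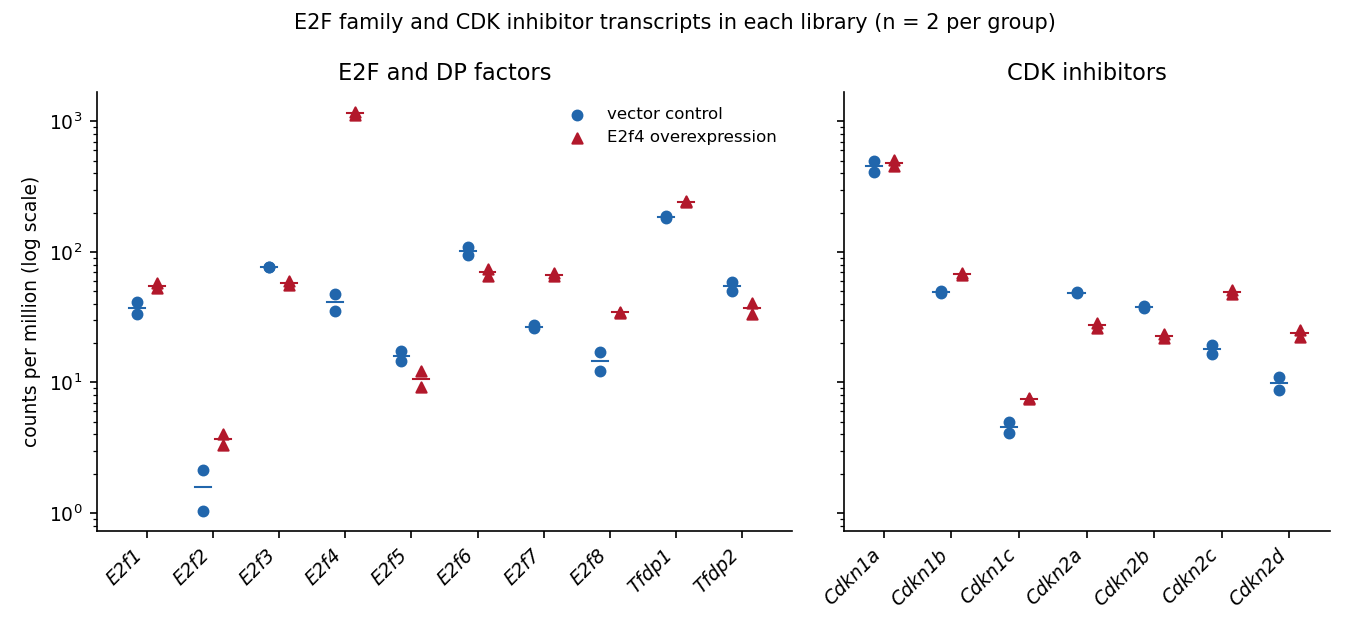
CPM on a log axis of the E2F and DP genes (left) and the CDK inhibitor genes (right) in each library; circles are the 2 vector libraries, triangles the 2 E2f4 libraries, and short lines the group means. E2f4 stands at 1118 and 1180 CPM against 35.5 and 47.5 CPM, and E2f7, E2f8, Cdkn2c and Cdkn2d lie above, Cdkn2a and Cdkn2b below, their vector values.

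The inhibitors of cyclin-dependent kinases (CDK) moved in opposite directions. Cdkn2a, the gene of p16 and p19ARF that marks senescent fibroblasts, was at 28.6 and 26.1 CPM with E2f4 and at 48.5 and 49.0 CPM with the vector. It fell by 0.83 without and by 1.37 with the correction, ± 0.11 (edgeR adjusted p = 9.43e-06). Its neighbour Cdkn2b, which encodes p15, was at 23.67 and 22.03 CPM against 36.9 and 38.7 CPM and fell by 0.72 and 1.10 (adjusted p = 1.82e-05). Neither was called in both fits, because the uncorrected fold stayed under 2.

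The related genes Cdkn2c (p18) and Cdkn2d (p19) rose. Cdkn2c was at 51.4 and 47.4 CPM against 19.5 and 16.4 CPM, with 1.15 ± 0.12 after the correction. Cdkn2d was at 22.2 and 25.4 CPM against 8.69 and 11.1 CPM, with 0.90 ± 0.13. Cdkn1b, the gene of p27, rose by 0.73 ± 0.08. Cdkn1a, which encodes the p53 target p21, overlapped between the groups, with 458 and 507 CPM against 413 and 495 CPM, and its fold was 0.09 without and -0.23 with the correction (edgeR adjusted p = 0.527 and 0.0295). Without the first or the second E2f4 library Cdkn1a did not pass (-0.19 and -0.26). Cdkn1c was at 0.73 and 0.17 and did not pass with it.

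E2F proteins bind a short GC-rich element, and 4 spellings of it, with TTGGCGC as the first, TTCCCGC as the second, TTGCCGC as the third and TTCGCGC as the fourth, were searched on either strand in RefSeq promoters of GRCm38.p6, from 250 bases before to 50 after the start. The stretches of 150 bases just upstream of the start are shown for 4 genes called higher in both fits that hold a match there. They were picked to cover the E2F, CDK, CDK inhibitor and replication groups, in capitals where the spelling matches, 5′ to 3′ on the strand of the gene.
E2f7 (chr10:110745289-110745438, plus strand): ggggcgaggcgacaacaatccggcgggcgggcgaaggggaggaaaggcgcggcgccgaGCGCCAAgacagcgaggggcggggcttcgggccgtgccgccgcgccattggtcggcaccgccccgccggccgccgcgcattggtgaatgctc
Cdk1 (chr10:69352913-69353062, minus strand): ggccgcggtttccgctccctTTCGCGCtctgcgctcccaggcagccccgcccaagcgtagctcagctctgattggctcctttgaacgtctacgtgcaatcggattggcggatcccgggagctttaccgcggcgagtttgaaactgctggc
Cdkn2c (chr4:109666757-109666906, minus strand): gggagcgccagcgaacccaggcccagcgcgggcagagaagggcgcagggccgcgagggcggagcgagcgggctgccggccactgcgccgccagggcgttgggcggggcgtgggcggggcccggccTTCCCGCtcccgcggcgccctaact
Rpa2 (chr4:132768210-132768359, plus strand): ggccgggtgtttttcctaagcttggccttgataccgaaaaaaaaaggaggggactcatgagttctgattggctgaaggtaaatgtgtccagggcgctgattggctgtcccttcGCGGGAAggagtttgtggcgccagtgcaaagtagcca
Not every gene called higher held a match: Mcm2, Cdc20, Dut and Umps had none in the whole window. Dnmt1 had none in these 150 bases at any of its 3 RefSeq starts but held matches in the wider window of the third. Cdkn2a, which fell, had a match 98 bases before the first of its 2 RefSeq starts and none in the 150 bases before the other. Cdkn2c likewise had its match at the first of 2 starts only. Counts of a gene do not separate its starts. The capitals begin 92 bases before the start in E2f7, 130 in Cdk1, 25 in Cdkn2c and 37 in Rpa2.

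A promoter was given for 10468 of the genes tested, and 19.6% of them held an E2F spelling. The share was 22.9% among the 362 promoters of genes called higher in both fits and 9.54% among the 503 of genes called lower. It was 72.0% of 25 promoters for the replication fork genes, 67.9% of 28 for recombination and checkpoint repair, 64.7% of 17 for origin licensing, 62.5% of 8 for the E2F and DP genes and 22.2% of 45 for the mitotic spindle genes. Of the 2047 genes with a match 511 rose and 267 fell, and of the 8421 without one 1511 (17.9%) rose and 1554 (18.5%) fell. The CCAAT box was found in 43.1% of all promoters and in 45.9% and 39.6% of those called higher and lower. The CHR spellings, which read TTTGAA or else TTCGAA, of late cell-cycle promoters were in 16.3%, 18.8% and 21.9%, and the AP-1 spellings, TGAGTCA with its reverse complement TGACTCA, in 4.66%, 6.91% and 9.54%. An inverted CCAAT box can overlap the E2F spelling TTGGCGC, and a match is a description of letters, not of a bound site. Promoter composition was not matched between these groups of genes.

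Of the pocket proteins and the DREAM/MuvB genes, 3 of 10 rose and 1 fell. Mybl2 (B-Myb), which joins MuvB to switch on mitotic genes, was at 40.4 and 43.5 CPM against 14.2 and 18.4 CPM (0.96 ± 0.11). Foxm1, the next factor of that switch, was at 101 and 98.9 CPM against 53.6 and 50.6 CPM (0.57 ± 0.09). The histone-binding subunit gene Rbbp4 rose (0.92 ± 0.09), and Rbl2, which encodes the pocket protein p130 of resting cells, fell, with 34.3 and 34.0 CPM against 54.7 and 51.1 CPM (-0.46 ± 0.08). Rbbp4 and Rbl2 share 11.8% and 8.49% of their exonic length with another gene, and the counting ignored strand.

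Of 22 cyclin and cell-cycle kinase genes 13 rose and 2 fell, with a median of 0.65. The 2 that fell were D-type cyclins, while the third, Ccnd3, was at 0.65 without and 0.10 with the correction and passed only without it. On leaving out the first or the second E2f4 library 1 fell. Cdk1, the kinase of mitotic entry, was at 136 and 140 CPM with E2f4 and at 66.4 and 68.8 CPM with the vector (1.14 ± 0.08, adjusted p = 3.58e-06). Its partner Ccnb1 (cyclin B1) was at 115 and 110.0 CPM against 68.8 and 61.0 CPM (1.24 ± 0.08), and the kinase adaptor gene Cks1b rose by 0.93 ± 0.08. Ccnd2 (cyclin D2) fell from 1685 and 1626 CPM to 843 and 813 CPM (-0.93 ± 0.07), and Ccnd1 fell by 0.46 on the log2 scale. The groups did not overlap in Cdk1, Ccnb1, Cks1b, Ccnd2 and Ccnd1, nor did they in any of the 1153 genes called in both fits. In bulk libraries more cycling cells and more RNA per cycling cell cannot be told apart.

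Genes of origin licensing were among the groups with the most members higher, 16 of 22 against 1 lower, with a median log2 fold change of 0.82. Mcm5, a subunit of the helicase that is loaded at origins, was at 147 and 156 CPM against 49.0 and 52.7 CPM (1.43 ± 0.08, adjusted p = 1.01e-06). Mcm3 was at 167 and 177 CPM against 71.3 and 69.3 CPM (1.11 ± 0.07), and Mcm2 at 182 and 194 CPM against 69.2 and 66.3 CPM (1.09 ± 0.08). Mcm6 rose by 0.91 ± 0.07. Every E2f4 library lay above every vector library in these 4 genes, but the groups were likewise apart in all 1153 genes called in both fits. The exception that fell was Orc4, a subunit of the origin recognition complex, with -0.38.

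At the replication fork 23 of 30 genes rose and 0 fell, with a median of 0.84. Pcna, the sliding clamp, was at 172 and 159 CPM against 99.98 and 93.7 CPM (1.22 ± 0.07). Dnmt1, which copies DNA methylation behind the fork, was at 298 and 299 CPM against 104 and 116 CPM (1.12 ± 0.07). The ligase gene Lig1 (1.14 ± 0.09) and Rpa2, a subunit of the protein that coats single-stranded DNA (1.05 ± 0.10), were called in both fits. In nucleotide synthesis 21 of 27 genes rose. Rrm2, the S-phase subunit of ribonucleotide reductase, was at 254 and 242 CPM against 151 and 149 CPM (0.98 ± 0.07), while Rrm2b, the subunit that p53 induces, fell (-0.92). Dut (1.16 ± 0.09), Umps (1.15 ± 0.09) and Mthfd1 (1.06 ± 0.08), enzymes of dUTP removal, pyrimidine synthesis and folate metabolism, were called higher.

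Of 51 genes of the mitotic spindle and kinetochore 30 rose and 0 fell; the median was 0.55 without and 0.79 with the correction. Cdc20, the activator of the anaphase-promoting complex, was at 119 and 129 CPM against 43.0 and 47.5 CPM (1.08 ± 0.08). Mad2l1, a gene of the spindle checkpoint, was at 67.1 and 57.9 CPM against 40.4 and 39.8 CPM (1.24 ± 0.09). Of the list 10 were called in both fits. Without the correction 5 members passed the test as lower, and 0 of the list did so in both fits.

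Genes of homologous recombination, the Fanconi pathway and checkpoint repair moved less evenly, with 9 of 35 higher and 2 lower. Bard1 (1.12 ± 0.14), the partner of BRCA1, Exo1 (0.87 ± 0.12), a nuclease of end resection, and the mismatch repair gene Msh6 (0.72 ± 0.08) rose. The checkpoint kinase genes Atr (-0.93) and Chek2 (-0.49) fell.

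The list of core histone and linker histone genes whose expression is tied to replication went the other way. Of 69 genes in the files 20 passed the filter on low counts, and 9 of these fell and 0 rose, with a median of -1.23. The count was 5 without the first or the second E2f4 library and 6 without the first vector library, and the median reached -0.61 under the alternatives. Hist1h3b was at 0.69 and 0.62 CPM against 5.63 and 5.99 CPM (-3.90 ± 0.28), and Hist1h2ab at 1.05 and 0.72 CPM against 6.46 and 6.57 CPM (-3.66 ± 0.29). The more abundant Hist1h2bc (-1.11 ± 0.08) and Hist1h1c (-1.11 ± 0.11) also fell, the latter with 68.9 and 77.1 CPM against 91.8 and 96.0 CPM. How RNA was selected for these libraries is not given in the sources used here, and near-identical copies make the counts of single genes uncertain.

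Apoptosis genes linked to E2F showed no common direction, with 3 of 12 higher and 1 lower. Bax was at 130 and 152 CPM against 60.7 and 77.9 CPM (0.49 ± 0.08), and Bak1 rose by 0.36 ± 0.13. Casp8 fell by 0.32 on the log2 scale. Without the first vector library neither Bak1 (0.14) nor Casp8 (-0.21) passed, and Casp8 did not pass without the first or the second E2f4 library either (-0.34 and -0.29). In the p53 response 8 of 24 genes rose and 5 fell, with a median of 0.06. Without the first or the second E2f4 library 5 rose, and 3 fell without the second. Pmaip1, the gene of the death protein NOXA, rose from 52.2 and 49.0 CPM to 85.3 and 81.8 CPM (1.37 ± 0.09). Mdm2, the ubiquitin ligase of p53, fell from 300 and 285 CPM to 165 and 153 CPM (-0.65 ± 0.07). The death receptor gene Fas (0.96 ± 0.13) and Perp (0.77 ± 0.09) rose.

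Among genes with an average log2 CPM of at least 3, the 8 highest and 8 lowest corrected folds were ranked. H19, an imprinted long non-coding RNA of growing fetal tissue, was at 918 and 954 CPM against 42.8 and 59.5 CPM (3.82 ± 0.11, adjusted p = 2.42e-08). Mest, another imprinted gene, was at 140 and 136 CPM against 9.21 and 7.32 CPM (4.17 ± 0.11), with 32.9% of its exonic length shared with Copg2. The chemokine gene Cxcl5 was at 43.6 and 46.8 CPM against 9.26 and 6.22 CPM (3.53 ± 0.16). These 3 were separated between the groups by several fold in either fit.

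Serine protease genes of cytotoxic and mast cell granules followed, Mcpt8 with 44.5 and 55.9 CPM against 7.42 and 5.01 CPM (3.05 ± 0.17) and Gzme with 18.6 and 22.5 CPM against 1.96 and 3.17 CPM (2.94 ± 0.20). Anxa8, an annexin gene, was at 215 and 221 CPM against 25.3 and 34.1 CPM (2.83 ± 0.12). H2-Q4, a class Ib histocompatibility gene, rose by 2.81 ± 0.18. H2-Q4, Mcpt8 and Gzme belong to gene families with similar copies, so the assignment of reads among copies is uncertain.

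At the lower end, Malat1, an abundant nuclear RNA, was at 258 and 239 CPM with E2f4 and at 1978 and 1772 CPM with the vector (-2.34 ± 0.08, adjusted p = 5.29e-08). Meg3, an imprinted long RNA of the Dlk1 locus, was at 138 and 125 CPM against 516 and 710 CPM (-2.23 ± 0.14). The share of reads assigned to no gene was lower in the same libraries, as given above, and its part in these values was not tested. Among protein-coding genes, the Wnt antagonist gene Dkk2 was at 3.16 and 3.68 CPM against 30.3 and 30.3 CPM (-2.89 ± 0.14), and Tnxb, which encodes tenascin X, at 2.87 and 3.82 CPM against 15.1 and 18.5 CPM (-2.97 ± 0.16).

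Col7a1, the collagen of anchoring fibrils, was at 41.4 and 41.7 CPM against 138 and 148 CPM (-2.48 ± 0.10). The aldehyde oxidase gene Aox1 (-2.66 ± 0.14), the cholesterol 25-hydroxylase gene Ch25h (-2.46 ± 0.14) and Ldb3 (-2.23 ± 0.17), a gene of the muscle Z-disc, completed the 8 lowest. Groups did not overlap in any of the 16 genes at the extremes, which the choice required.

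**Figure D3:**
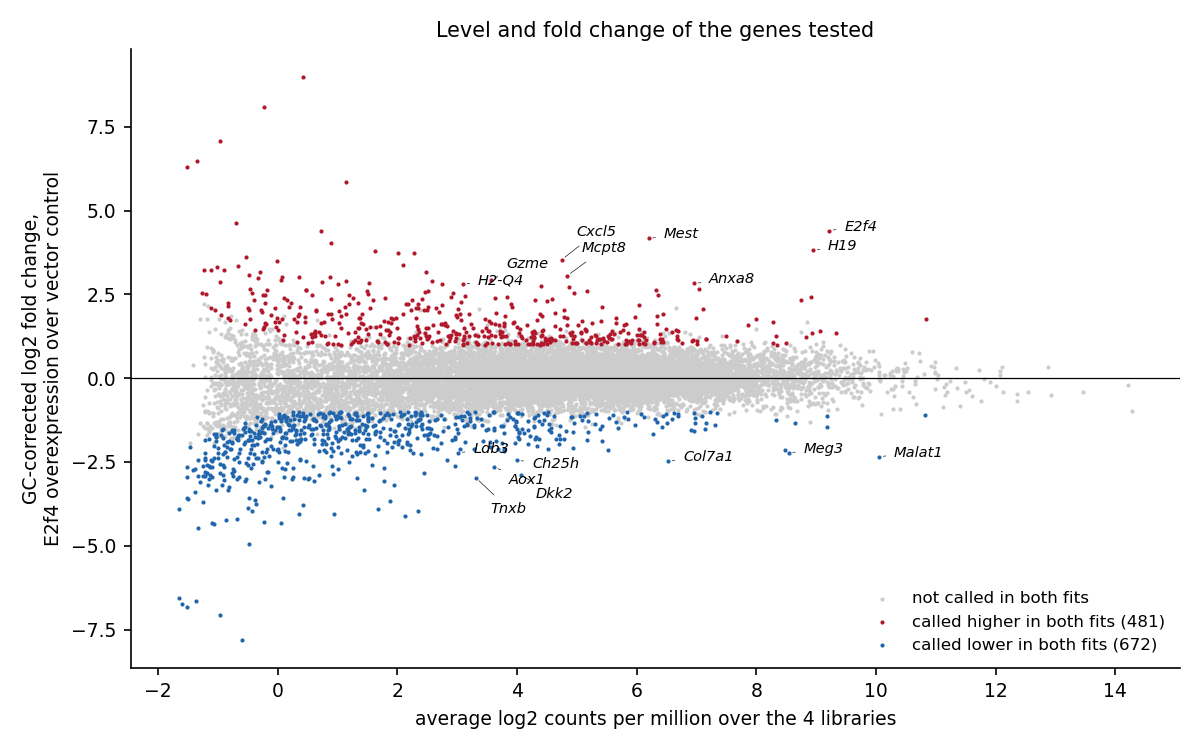
The corrected log2 fold change (y axis) is plotted against the average log2 CPM over the 4 libraries (x axis) for the 13199 genes tested, with the 481 genes called higher in both fits in red, the 672 called lower in blue and the 8 highest and 8 lowest genes of sufficient level named. H19 (3.82) and Malat1 (-2.34) stand out among abundant transcripts.

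Inflammatory and secretory genes did not move as a group. Of 38 genes 25 were tested, 9 rose and 5 fell, with a median of 0.38. Beside Cxcl5, the cytokine gene Il11 rose from 9.52 and 11.01 CPM to 28.1 and 27.3 CPM (1.35 ± 0.12), and the adhesion gene Icam1 from 10.6 and 11.5 CPM to 29.4 and 36.1 CPM (1.19 ± 0.12). The chemokine gene Ccl7 fell from 92.5 and 64.7 CPM to 22.2 and 21.3 CPM (-1.32 ± 0.13), and Ptgs2, the inducible cyclooxygenase, fell by 0.61 on the log2 scale. Il1b and Tnf had 0 counts in all 4 libraries.

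Interferon-stimulated genes stayed low and mixed, with 2 of 20 tested genes higher, 2 lower and a median of 0.00. Isg15, a ubiquitin-like modifier, rose from 0.74 and 0.75 CPM to 1.89 and 2.29 CPM (1.27 ± 0.34), and Ifit3 fell from 2.49 and 2.54 CPM to 1.09 and 1.00 CPM (-1.01 ± 0.30). Bst2 (0.51 ± 0.14) rose and the RNA sensor gene Ddx58 (-0.51 ± 0.09) fell. The values of these 4 genes lie between 0.74 and 53.9 CPM, so Isg15 and Ifit3 rest on few reads. Without the second E2f4 library Isg15 (1.17), Bst2 (0.41) and Ifit3 (-0.98) kept their direction and did not pass, and Ifit3 did not pass without the first (-1.02).

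Collagens and other matrix genes were lower in part: 16 of 30 fell and 0 rose, with a median of -0.28 without and -0.41 with the correction. Without the first E2f4 library 7 fell and without the second 11, and without the first vector library 3 rose. Of the 13 fibroblast markers, 3 of which are also in the matrix list as Col1a1, Col1a2 and Col3a1, 6 fell and 2 rose, with a median of -0.43; without the first E2f4 library 2 fell and without the second 3. Fbn1 (fibrillin 1) fell from 2478 and 2332 CPM to 1201 and 1198 CPM (-1.10 ± 0.08, adjusted p = 3.54e-06). Thbs1 (thrombospondin 1), one of the most abundant messages, fell from 25793 and 26613 CPM to 13224 and 13937 CPM (-0.97 ± 0.08). Col4a2 (-0.92 ± 0.08) and Col5a1 (-0.84 ± 0.08), genes of basement membrane and fibrillar collagens, had uncorrected values of only -0.28 and -0.36, at exonic GC contents of 60.6% and 58.0%. Of 15 smooth muscle contractile genes 4 rose and 2 fell; without the second vector library 8 rose and 1 fell, and without the first or the second E2f4 library 0 fell. The kinase gene Mylk (-0.73 ± 0.10) and the myosin gene Myh11 (-0.61 ± 0.10) fell, and Smtn (0.46 ± 0.07) and Tpm2 (0.41 ± 0.10) rose.

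Cholesterol synthesis was a metabolic list with many members higher, 15 of 23 against 0 lower, with a median of 0.64 in both fits. Dhcr7, the enzyme of the last step to cholesterol, was at 41.3 and 46.0 CPM against 16.6 and 17.8 CPM (1.16 ± 0.10). Cyp51 (0.89 ± 0.07), the sterol carrier gene Stard4 (0.94 ± 0.10) and Insig1 (0.74 ± 0.08), the retention factor of the sterol sensor, rose as well. Of 18 glycolysis genes 10 rose and 2 fell, but the median dropped from 0.61 to 0.28 with the correction. Without the second E2f4 library 6 rose, and without the first or the second E2f4 library 0 fell. Pgk1 (0.66 ± 0.07), Hk2 (0.59 ± 0.09), Tpi1 (0.55 ± 0.07) and Pkm (0.50 ± 0.08) rose.

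Of 74 tested genes of cytosolic ribosomal proteins 45 rose and 0 fell, with a median of 0.47. With length added to the correction 39 rose, and the median was as low as 0.30 under the alternatives. Rpl15 was at 535 and 588 CPM against 314 and 275 CPM (1.38 ± 0.10), and Rpl11, a subunit that can bind MDM2, at 479 and 499 CPM against 246 and 217 CPM (1.05 ± 0.08). Rpl23 (0.81 ± 0.07) and Rpl38 (0.76 ± 0.07) rose. These genes have many processed copies in the genome, among which reads may have been divided: Rpl34 was counted at under 1 CPM in all 4 libraries.

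**Figure D4:**
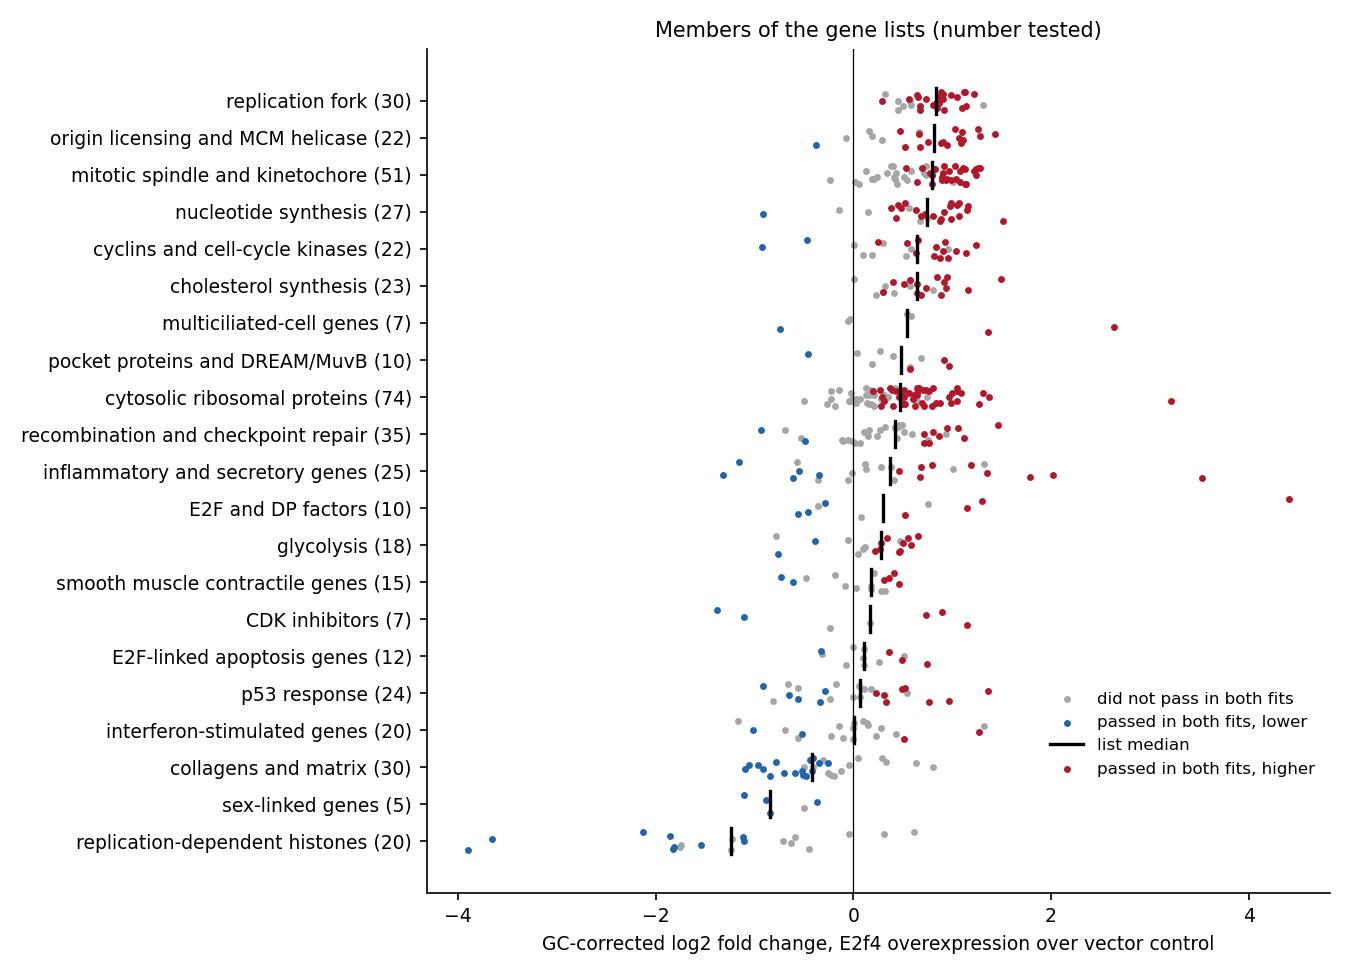
Corrected log2 fold changes (x axis) of the tested members of each gene list (rows, ordered by their median, number tested in brackets); red and blue points passed the test in both fits as higher and lower, grey points did not, and black bars are list medians. The medians run from 0.84 for the replication fork to -1.23 for the replication-dependent histones.

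The multiciliated-cell genes, for which E2F4 has been described as a partner of the Multicilin protein, were measured in part. Of 13 genes 7 passed the filter on low counts and were tested; Mcidas, which encodes Multicilin, had 0 counts in 3 libraries and 1 in the other, Gmnc had 0 in all, and Foxj1 had 1 to 10. Ccno, a cyclin-like gene of centriole formation, rose from 1.75 and 1.21 CPM to 4.91 and 6.12 CPM (1.37 ± 0.27), and Myb was at 1.38 and 1.15 CPM against 0.04 and 0.46 CPM (2.64 ± 0.64). Myb passed the filter through the E2f4 libraries, so its direction was set by it, and its fold rests on few reads. Its 0.04 CPM in the first vector library lies under the floor of 3 counts there, 0.133 CPM. Rfx3 fell (-0.74 ± 0.23), but did not pass without the first vector library (-0.41).

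Sex-linked transcripts differed between the groups. Transcripts of the Y chromosome and Xist, the RNA of the inactive X, were found together in all 4 libraries; the methods give the 2-month-old mice as female and no sex for the newborn mice. Ddx3y was at 9.96 and 7.36 CPM with E2f4 and at 36.8 and 36.5 CPM with the vector, a log2 fold change of -2.07 without and -0.84 ± 0.13 with the correction. Eif2s3y (-0.88 ± 0.15) and Uty (-1.11 ± 0.21) fell too, Kdm5d did not pass (-0.50), and Xist was at 686 and 560 CPM against 1400 and 1156 CPM (-0.37 ± 0.08). Without the second E2f4 library Xist was at -0.31 and did not pass, and with length added to the correction it was at -0.05. The part of a different mix of animals in the other results was not tested.

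Marker lists of other cell types had low sums. The 10 macrophage markers summed to 8.94 to 10.2 CPM, with Adgre1 and Tyrobp at 0. The 12 skeletal muscle markers summed to 23.2 and 24.2 CPM with E2f4 and to 67.0 and 76.7 CPM with the vector. Myod1, Myog and 5 others were at 0 in all libraries. In all, 10 of the 12 lay under 1 CPM in all 4 libraries, and of the 2 tested 1 fell. The 10 keratinocyte markers summed to 68.9 and 71.5 CPM against 48.0 and 49.5 CPM. Perp, also in the p53 list, made up most of that sum, with 64.8 and 67.7 CPM against 42.6 and 43.5 CPM. Of these 10 markers 7 lay under 1 CPM in all 4 libraries. The 10 endothelial markers summed to 64.4 and 58.4 CPM against 37.9 and 42.1 CPM, with 6 of them under 1 CPM in all 4 libraries. Of the 4 endothelial markers tested 2 rose. The 8 adipocyte markers (7.69 to 14.1 CPM) and the 10 of Schwann cells and melanocytes (10.5 to 11.8 CPM) stayed lower. The part of such cells in the results was not tested.

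Other libraries of mouse skin fibroblasts were then set beside these values. In the knockdown experiment, 3 libraries of the E2f4 hairpin sh1 were compared with 3 of a non-targeting hairpin, and in the passage series 4 libraries of P7, the senescent passage, with 4 of P3; both had the same correction and shared no library with the overexpression. In these 2 experiments, passing, rising and falling refer to the fit with the correction alone. The methods name female mice as the source of the passage series. The paper describes the knockdown cells as proliferating and the overexpression cells as pre-senescent. All 5 sex-linked genes passed the filter on low counts with E2f4 overexpression and in the knockdown, but only Xist in the passage series. The part of these differences in the comparisons was not tested. E2f4 fell by 1.48 on the log2 scale in the knockdown and by 0.37 from P3 to P7. Of the 481 genes called higher with E2f4, 361 were tested in the knockdown, where 47 (13.0%) passed as lower and 33 (9.14%) as higher, beside 7.94% and 10.6% of all genes tested there. Of the 672 genes called lower, 491 were tested and 63 (12.8%) passed as higher and 13 (2.65%) as lower. Most genes called with E2f4 thus did not pass in the knockdown, where 1.46% and 0.179% of all genes were called higher and lower with a fold over 2.

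In the passage series, 411 of the genes called higher with E2f4 were tested, and 182 (44.3%) passed as lower at P7 and 54 (13.1%) as higher, beside 25.5% and 25.4% of all genes. Of 553 genes called lower with E2f4, 183 (33.1%) passed as higher at P7 and 58 (10.5%) as lower. With a fold over 2, 3.85% and 6.73% of all genes were called higher and lower at P7. The shares past the adjusted p were thus above the background in the direction opposite to E2f4 and below it in the same direction.

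The cell-cycle lists gave the same picture by count. Of 22 licensing genes 13 passed as lower in the knockdown and 17 at P7, and of 30 replication fork genes 13 and 28, with none of either list higher. Of 51 mitotic genes 27 passed as lower in the knockdown and 50 at P7. Mcm3 was at -0.85 in the knockdown and at -2.203 at P7, Mcm5 at -0.44 and -2.47, and Cdkn2c at -0.44 and -1.14, all past the adjusted p. Cdkn2a, which fell with E2f4, rose at P7 by 3.12 and was at -0.13 in the knockdown (edgeR adjusted p = 0.358).

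Replication-dependent histones, lower with E2f4, passed as higher at P7 in 14 of 18 genes tested, with a median of 1.49, and in 1 of 15 in the knockdown. Nucleotide synthesis genes passed as lower in 13 of 27 in the knockdown and 23 of 27 at P7. Of 23 cholesterol synthesis genes 3 were higher and 0 lower in the knockdown and 3 and 7 at P7. Of 30 matrix genes 6 were higher and 11 lower in the knockdown, beside 0 and 16 with E2f4, and the genes shared were not counted. Of the 4 named above, Fbn1 passed as lower in the knockdown (-0.52) and Col4a2 as higher (0.27). Thbs1 (0.16) and Col5a1 (-0.12) did not pass there. H19 fell in the knockdown (-0.68) and at P7 (-3.46), whereas Mest did not pass in either (0.43 and 0.08) and Malat1 was at -0.04 in the knockdown and rose at P7 (0.58). Of 19 interferon-stimulated genes tested in the knockdown 18 passed as higher, with a median of 2.12, beside the mixed values with E2f4, and at P7 13 of 20 passed as lower and 1 as higher, with a median of -0.53.

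**Figure D5:**
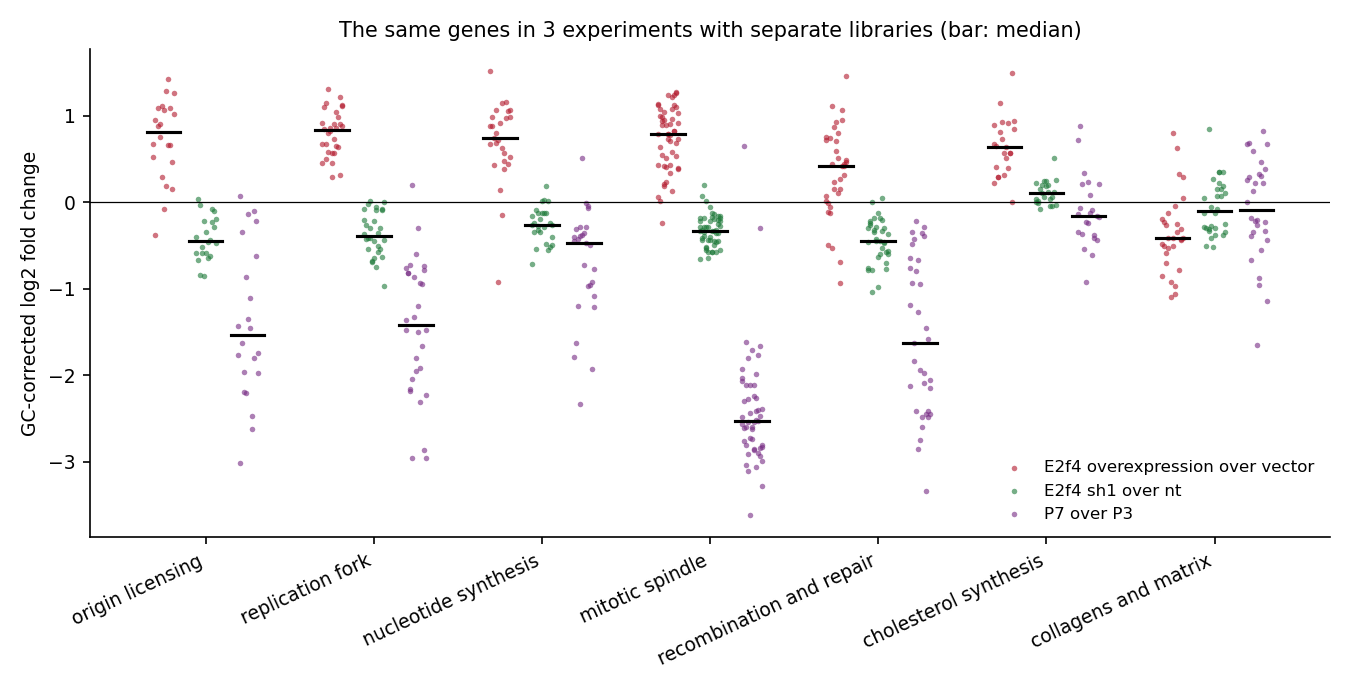
Corrected log2 fold changes (y axis) of the members of 7 gene lists are shown for E2f4 overexpression over vector (red), E2f4 sh1 over non-targeting hairpin nt (green) and P7 over P3 (purple), with black bars at the medians. The replication fork median is 0.84, -0.39 and -1.42, and that of cholesterol synthesis 0.64, 0.11 and -0.16.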

How the data were processed

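Per the study's methods, the authors used Trimmomatic 0.39 for adapters and low-quality bases, HISAT2 2.2.1 for alignment (mm10) and HTSeq 0.12.4 for counting, without regard to strand, so overlapping and antisense genes are uncertain; the deposited values are raw counts of 24984 genes per library. Reads of 5 rows that name no gene were left out. Reads assigned to no gene were 5.64% to 11.5% and ambiguous reads 1.44% to 1.88% of these and the assigned reads together. Groups came from the labels.

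Genes were tested with edgeR 4.0.16 in R 4.3.3 on the 4 libraries (filterByExpr, TMM, quasi-likelihood test, Benjamini-Hochberg adjustment over the 13199 genes tested), without and with an offset from a robust loess of each library on exonic GC content (degree 2, span 0.3). Exonic GC content and coordinates came from RefSeq on GRCm38.p6, the assembly of mm10, for 24866 genes, 24431 of them matched by symbol and 435 by an older symbol. CPM values are before the GC correction and folds after it unless said otherwise; errors are SE of the log2 fold change. Knockdown (6 libraries) and passage libraries (16, 1 coefficient per passage) were fitted apart with the same offset. The procedure was tested on simulated data. Replicates differed by more than counting noise (chi-square per degree of freedom 7.31 and 17.1); 3 counts, the floor of detection, are 0.109 to 0.172 CPM, for counting error only. DESeq2 1.42.0, size factors, other filters, other GC corrections, a replicate block and left-out libraries were alternatives.

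The comparison and the lists were chosen with earlier results of these data known. Named genes were all E2F, DP and CDK inhibitor genes, the 8 highest and 8 lowest genes by corrected fold among those called in both fits whose groups did not overlap and whose average log2 CPM reached 3 (symbols of predicted genes and of micro and small nucleolar RNAs passed over), up to 4 genes of every other list with the smallest corrected p among those that passed in both fits, and, with the same level, the 3 highest and 3 lowest genes lost with the correction. A few more list members (Orc4, Rrm2b, Ccnd1, Atr, Chek2, Ptgs2, Kdm5d, Rpl34) were named after their values were seen. Some genes that the rule names are not reported here. Peak lists of ATAC-seq were not used here.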

Additional observations from a re-analysis of the deposited data

How the results depend on the processing

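The counts of genes called without the correction, with it and in both fits stayed within 1.5 times under all alternatives but one. With the GC content of the promoter in place of that of the exons, 985 genes were called higher and 1385 lower, and in both fits 898 and 1246; that measure covers 18592 genes. DESeq2 called 423 higher and 522 lower in both fits, and the correction for GC content and length together 447 and 648. Leaving out 1 library gave 818 to 1390 higher and 1018 to 1523 lower calls without the correction, 571 to 781 and 703 to 936 with it, and 454 to 572 and 518 to 663 in both fits. E2f4 stayed at 4.26 to 4.79. With 1 library left in a group, that library was assumed to vary like the others.

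With the replicate number as a block 1034 genes were called higher and 1403 lower without the correction, 646 and 894 with it and 492 and 680 in both fits. The labels give the numbers no meaning, and the deviations of equally numbered libraries correlated at 0.14 over 2 pairs, which does not settle whether they shared a batch. In both groups the first library had the lower mean GC content and the higher share of reads assigned to no gene. Under the block E2f2 (0.78), E2f5 (-0.37) and Zfp943 (-0.42) passed, and no named gene was lost.

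Cdkn1a turned to 0.0891 without the correction and 0.0215 with promoter GC, Casp8 to 0.0248 with promoter GC, and Scand1 to -0.11 with GC and length and to -0.23 without the first vector library (up to 0.92 without the second). Of list medians, adipocyte markers ranged from -0.38 to 0.0624 and macrophage markers from -0.63 to 0.11 on leaving out 1 library. Macrophage markers were at 0.0720 and DREAM genes at -0.0436 with promoter GC, keratinocyte markers at -0.43 with at least 10 counts in every library, and Schwann cell and melanocyte markers at -0.17 without the correction and -0.0919 with promoter GC. With promoter GC Tfdp2 (-0.09), Fas (0.35) and Hist1h1c (-0.22) no longer passed; with all 44 libraries in 1 fit Cdkn1a (-0.22), Ddx58 (-0.51), Isg15 (1.28), Bst2 (0.52), Ifit3 (-1.01), Myh11 (-0.60) and Rpl38 (0.78) did not. The cause of these changes was not tested.

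With 2 libraries a group, p-values rest on the spread that edgeR shares across genes. The GC trend also ran between replicates, so a correction by exonic GC content removes any true difference that follows it.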

Other observations

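The following groups were picked after the values were seen, so their counts and values are descriptions and were given no test as groups. The granzyme and mast cell protease genes lie side by side on chr14:55941451-56262334. Of 15 such genes in the files 7 passed the filter on low counts and were called higher with E2f4 in both fits; as most of the 7 passed the filter through the E2f4 libraries, their direction was set by it. Cma2 had 131 and 126 counts with E2f4 against 10 and 6 with the vector, Mcpt1 had 81 and 71 against 7 and 1, and Gzmd had 65 and 71 against 3 and 2. Mcpt9 (59 and 54 counts) and Gzmb (35 and 33 counts) had 0 counts in both vector libraries, which makes them at least 15.5-fold and 9.38-fold higher against a floor of 3 counts per library. Gzmg, Gzmn and Gzmf had 0 counts in all 4 libraries. From P3 to P7 Gzme (4.03) and Mcpt8 (3.94) rose, and both were also higher in the knockdown (1.77 and 0.92).

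Long RNAs that stay in the nucleus were lower as far as they were measured. Of 10 such genes 9 were tested and all 9 fell in both fits, with a median corrected log2 fold change of -1.23. The smallest of these falls, Xist (-0.37), was at -0.31 without the second E2f4 library and at -0.05 with length added to the correction. Neat1 was at 57.4 and 49.4 CPM against 149 and 129 CPM (-1.23), Kcnq1ot1 at 6.47 and 4.68 CPM against 20.7 and 16.7 CPM (-1.01), Firre at 7.27 and 8.27 CPM against 26.1 and 23.2 CPM (-1.74), and Rian at 312 and 284 CPM against 934 and 802 CPM (-1.13). In the knockdown Neat1 was at -0.06 and Firre at 0.03. At P7 against P3 Neat1 (0.80), Malat1 (0.58), Meg3 (1.20), Rian (1.24) and Mirg (0.98) passed as higher, Xist (-0.74), Kcnq1ot1 (-0.53) and Airn (-0.83) as lower, and Firre did not pass (-0.30). The share of reads assigned to no gene, 6.01% and 5.64% against 11.5% and 10.8%, moved with these RNAs. Its part was not tested.

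Imprinted genes moved both ways. Of 26 genes 21 were tested, 6 rose and 6 fell. Beside H19 and Mest, Igf2, the growth factor gene next to H19, was at 71.1 and 87.5 CPM against 19.3 and 22.5 CPM (1.64), and Peg10 at 217 and 228 CPM against 45.3 and 33.8 CPM (2.65). Dlk1 rose (0.83) while Meg3, Rian and Mirg of the same locus fell (-2.23, -1.13 and -1.08). Meg3, Rian, Mirg, Kcnq1ot1 and Airn are also in the group of nuclear RNAs.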
